A study of Homo sapiens with 7 samples.

Results

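The set comprises 39 human genes whose products copy DNA or supply its building blocks, chosen by function with earlier results of these data known. Of these, 38 had a value among the 56234 genes to which transcripts could be assigned, and UHRF1 had none. By role, 10 genes with a value license replication origins, 6 activate the replicative helicase, 7 belong to DNA polymerases, 8 form or load the sliding clamp or finish the lagging strand, 5 supply deoxynucleotides, and E2F1 and DTL are regulators. In a dividing cell the origin recognition complex, CDC6 and CDT1 load the MCM ring onto DNA during G1. CDC45 and the GINS complex then turn the ring into a moving helicase, and polymerases held by the PCNA clamp extend the new strands. Many of these genes are transcribed together at the entry into S phase under E2F factors, and their transcripts mark proliferating cells of squamous epithelium and its carcinomas.

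RNA-Seq was performed in the esophageal squamous carcinoma cell lines TE5 and KYSE140 after lentiviral short hairpin RNA (shRNA) silencing, to identify transcripts that depend on TP63, SOX2 or the long noncoding RNA CCAT1. The TE5 groups were a non-targeting scramble shRNA, shTP63, shSOX2 and shCCAT1, and the KYSE140 groups were scramble, shTP63 and shSOX2, with 1 library per group and therefore no replicate of any condition. By the labels all groups were grown in the same medium, and each silenced group rests on 1 shRNA. By their run labels, the knockdown libraries of a line shared 1 lane and its scramble library came from a different one, in TE5 also from a different flow cell. A shift seen in every knockdown of TE5, or in both of KYSE140, therefore cannot be separated from the lane. Pairs of knockdown libraries from the same lane are given as well.

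The libraries held 68532611 to 98036494 estimated counts. The level of TP63 in TPM, a transcript abundance scaled for length and depth, was 127 in TE5 scramble and 33.6 in TE5 shTP63, and 194 and 49.0 in KYSE140. SOX2 was at 89.6 TPM in TE5 scramble and 34.9 in TE5 shSOX2, whereas in KYSE140 it was at 191 and 130, so the remaining share was larger in KYSE140. No transcript was assigned to CCAT1 here, so its level in the shCCAT1 library was not checked. Of the squamous markers, KRT5 reached 201 to 12300 TPM over the libraries, while KRT14 was at 0.546 TPM or less in the TE5 libraries and at 304 or more in KYSE140. The leukocyte marker PTPRC was at 0.236 TPM or less in every library. Another leukocyte marker, CD68, was at 48.6 to 116 TPM in TE5 and at 2.57 to 14.6 in KYSE140. The fibroblast marker COL1A1 was at 12.6 to 44.4 TPM over the libraries.

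Of the 5 knockdowns, the replication genes had their lowest median upon TP63 silencing in TE5 cells. All 38 members were below scramble, with a median log2 fold change of -0.80 against 0.07 over the 24207 genes compared. The fold change compares TMM-normalized estimated counts plus 1, and a gene entered a pair when 1 of both libraries had at least 10 counts. A log2 fold change past -1 was reached by 8 members, and 5.39% of all genes lay past it. Among the 10174 genes with a mean of at least 1000 normalized counts, a level like that of most members, the median was -0.14. Of these genes 63.5% were below scramble and 433 lay past -1. Scaling by total counts left 36 of 38 members below scramble, ORC6 and RRM2 being the exceptions, and TPM left 36, with ORC6 and POLE as exceptions. Total-count scaling and TPM also raised the median of all genes to 0.20. Relative to the median of all genes, the members stood at -0.87 with TMM and with total counts, and at -0.75 with TPM. Past -1 were 4 members with total counts, where 4.16% of all genes lay, and 3 with TPM, where 3.3% lay. In these bulk libraries fewer cells that express these genes and less RNA per cell cannot be told apart. The summed fibroblast markers were at 15.4 TPM in TE5 scramble and 27.1 in TE5 shTP63, the leukocyte markers at 69.2 and 117, nearly all of it CD68, and the endothelial markers at 2.38 and 9.28, and their part in the result was not tested.

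**Figure D1:**
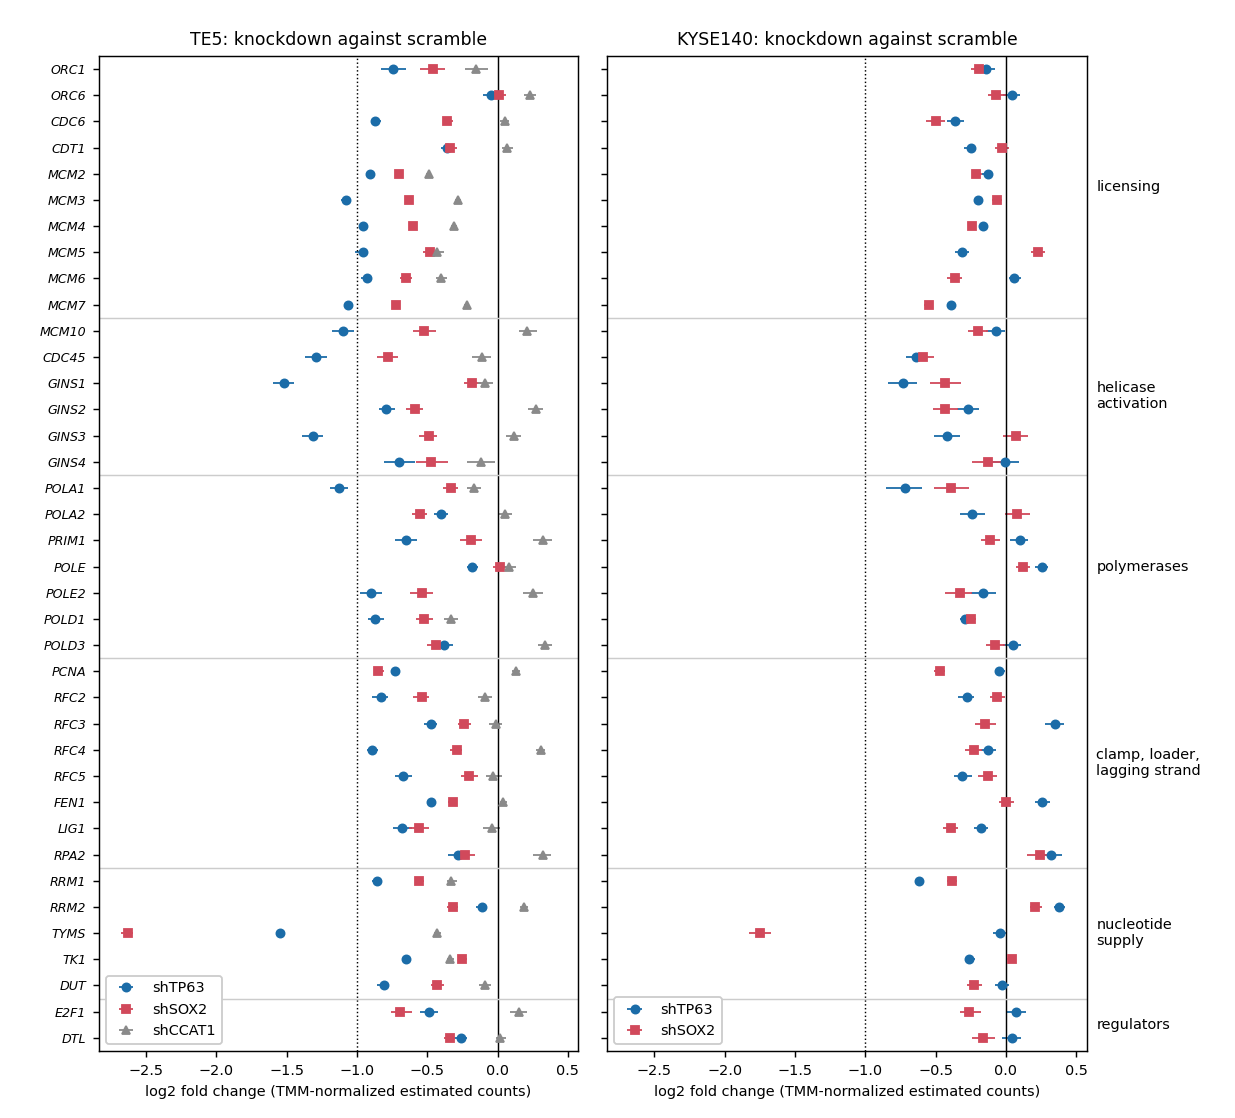
Log2 fold change of each member (rows, grouped by role) against the scramble library of TE5 (left) and KYSE140 (right), with shTP63 as circles, shSOX2 as squares and shCCAT1 as triangles; bars are 95% intervals for counting error only and the dotted line marks -1. All 38 circles of TE5 lie left of 0, whereas those of KYSE140 run from -0.73 (GINS1) to 0.38 (RRM2).

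Upon SOX2 silencing in TE5 the members were nearer to scramble, with TYMS apart from the others. The median was -0.47 against -0.01 over all 22547 genes, 36 of 38 members were below scramble, and TYMS alone lay past -1, where 4.79% of all genes lay. In KYSE140 the medians were -0.15 upon TP63 silencing, with 27 members below scramble, and -0.19 upon SOX2 silencing, with 30 below, while both medians of all genes were 0.05. No member lay past -1 upon TP63 silencing in KYSE140, against 4.06% of all genes, and TYMS alone did upon SOX2 silencing, against 6.07%. A single gene or none of 38 is under those shares. Upon CCAT1 silencing in TE5 the members had a median of -0.02 against 0.01 over all genes, 20 were below and 18 above scramble, and none lay past -1, where 5.85% of genes lay. With total counts that median turned to 0.16, against 0.19 over all genes. No member lay past 1 in any of these 5 pairs. Of all genes, 14.7%, 6.08% and 11.5% did upon TP63, SOX2 and CCAT1 silencing in TE5. In KYSE140 8.7% did upon TP63 silencing and 6.78% upon SOX2 silencing. Among genes with a mean of at least 1000 normalized counts few did. They were 177 of 10174, 48 of 10173, 15 of 10174, 68 of 10152 and 123 of 10144 in the same order. Past -1 upon CCAT1 silencing were 115 of the 10174 genes of that level.

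The licensing genes build the pre-replicative complex, and upon TP63 silencing in TE5 their median was -0.92. MCM3, a subunit of the MCM ring, was at 173 TPM in scramble, 91.2 in shTP63, 111 in shSOX2 and 159 in shCCAT1 of TE5, and at 109, 95.2 and 90.2 in scramble, shTP63 and shSOX2 of KYSE140. Its log2 fold change upon TP63 silencing in TE5 was -1.08, with a 95% counting interval of -1.11 to -1.05. MCM7, another subunit of the ring, stood at 434, 238, 272 and 404 TPM in the same order of TE5 libraries and at 241, 192 and 152 in KYSE140, with a log2 fold change of -1.06. Both genes were thus lowest in the shTP63 library of TE5, and in KYSE140 MCM7 was lowest in the shSOX2 library, whereas MCM3 was lowest there by TPM and in the shTP63 library by normalized counts. The other ring subunits, MCM2, MCM4, MCM5 and MCM6, had log2 fold changes of -0.91 to -0.96 upon TP63 silencing in TE5, just short of the limit. ORC6, the smallest subunit of the origin recognition complex, was the highest of the role at -0.05. It was at 97.6, 108, 98.9 and 125 TPM in scramble, shTP63, shSOX2 and shCCAT1 of TE5 and at 58.2, 63.7 and 48.0 in scramble, shTP63 and shSOX2 of KYSE140. CDC6, which loads the ring, was at -0.87 and its partner CDT1 at -0.36, so the ring and CDC6 were further below scramble than CDT1 and ORC6. In KYSE140 the 10 licensing genes ranged from -0.39 to 0.06 upon TP63 silencing and from -0.55 to 0.23 upon SOX2 silencing, and the ends of both ranges were ring subunits: MCM7 was lowest in both, MCM6 highest in the first and MCM5 in the second.

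Helicase activation was the role furthest below scramble upon TP63 silencing in TE5, with a median of -1.20 and 4 of 6 genes past -1. GINS1, a subunit of the GINS complex, was at 31.3 TPM in TE5 scramble, 12.1 in shTP63, 28.1 in shSOX2 and 33.0 in shCCAT1. In KYSE140 it was at 12.7 TPM in scramble, 7.53 in shTP63 and 9.08 in shSOX2. The shTP63 library was the lowest of each line. Its log2 fold change was -1.52 (-1.60 to -1.45) for TE5 and -0.73 (-0.84 to -0.63) for KYSE140, where POLA1 came next at -0.72. GINS3, of the same complex, was at 49.2, 24.6, 36.0 and 59.4 TPM in TE5 scramble, shTP63, shSOX2 and shCCAT1, and at 21.2, 16.1 and 20.3 in KYSE140 scramble, shTP63 and shSOX2, and its log2 fold change upon TP63 silencing in TE5 was -1.31. CDC45, the third part of the active helicase, was at 45.8, 19.7, 26.6 and 44.4 TPM in the same libraries, and at 42.2, 30.5 and 28.8 in scramble, shTP63 and shSOX2 of KYSE140. CDC45 was therefore lower upon both silencings in both lines. TP63 and SOX2 silencing put it at -1.29 and -0.78 (log2) for TE5 and at -0.64 and -0.59 for KYSE140. MCM10, which helps to start the helicase, was at 18.5, 9.35, 11.8 and 20.7 TPM in TE5 scramble, shTP63, shSOX2 and shCCAT1, with shTP63 at -1.10 against scramble on the log2 scale, but at 20.6, 19.2 and 15.5 in KYSE140 scramble, shTP63 and shSOX2. GINS2 and GINS4 were at -0.79 and -0.70 (log2) upon TP63 silencing in TE5. GINS4, the highest of the role, was at 13.3, 12.8, 9.27 and 14.9 TPM in TE5 scramble, shTP63, shSOX2 and shCCAT1 and at 18.9, 18.4 and 14.5 in KYSE140 scramble, shTP63 and shSOX2. Its TPM in TE5 shTP63 was thus nearer to scramble than its counts were. The 4 GINS genes encode subunits of 1 complex, and upon SOX2 silencing in TE5 GINS1 was at -0.18 while the others lay between -0.59 and -0.47.

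**Figure D2:**
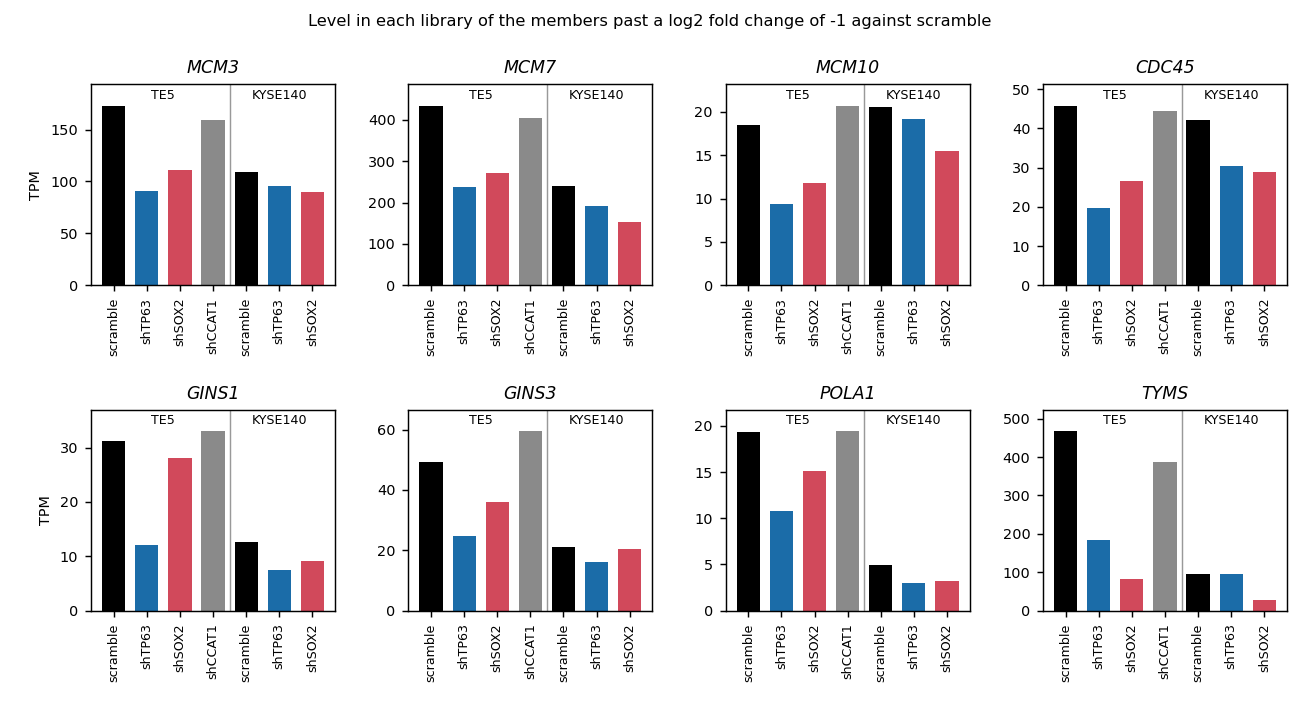
Level in TPM of the 8 members past a log2 fold change of -1 in at least 1 comparison with scramble, 1 bar per library and each panel with its own axis from 0. In TE5 the shTP63 bar is the lowest for 7 of the 8 genes, and for TYMS the shSOX2 bar is the lowest in both lines.

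Among the polymerase genes POLA1, the catalytic subunit of the polymerase that lays down primers, was the furthest below scramble upon TP63 silencing in both lines. It was at 19.3 TPM in TE5 scramble, 10.8 in shTP63, 15.1 in shSOX2 and 19.4 in shCCAT1, and at 4.90, 3.05 and 3.21 in scramble, shTP63 and shSOX2 of KYSE140. The log2 fold changes upon TP63 silencing were -1.13 (-1.19 to -1.06) in TE5 and -0.72 (-0.85 to -0.60) in KYSE140. Its partner subunits POLA2 and PRIM1 were at -0.40 and -0.65 in TE5. POLE, the catalytic subunit for the leading strand, was the highest of the role, at -0.18 by counts. Its TPM was 34.3, 39.2, 37.7 and 45.7 in scramble, shTP63, shSOX2 and shCCAT1 of TE5 and 24.8, 37.8 and 28.4 in scramble, shTP63 and shSOX2 of KYSE140, so that by TPM it was above scramble in every knockdown. POLE2, a subunit of the same enzyme, was at -0.90, and POLD1, the catalytic subunit for the lagging strand, at -0.87. Catalytic and accessory subunits of 1 enzyme were thus at different distances from scramble.

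The clamp, its loader and the lagging-strand enzymes had no member past -1 in any comparison with scramble. Upon TP63 silencing in TE5 the median of the 8 was -0.67. RFC4, a subunit of the clamp loader, was lowest at -0.89, with 178 TPM in scramble, 109 in shTP63, 148 in shSOX2 and 235 in shCCAT1, and it was at 86.0, 86.4 and 66.7 TPM in scramble, shTP63 and shSOX2 of KYSE140. RPA2, which binds single-stranded DNA, was highest at -0.28, with 35.9, 32.7, 29.2 and 47.8 TPM in TE5 and 25.6, 33.5 and 26.8 TPM in KYSE140. PCNA, the clamp, was lower upon SOX2 than upon TP63 silencing in both lines. Its log2 fold changes were -0.85 upon SOX2 and -0.73 upon TP63 silencing in TE5, and -0.47 and -0.05 in KYSE140, with levels of 140 and 112 TPM in the shSOX2 libraries against 256 and 175 in scramble.

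Of the nucleotide supply genes, TYMS, which makes thymidylate and is the target of fluorouracil, had the lowest value of any member in this study. It was at 467 TPM in TE5 scramble, 185 in shTP63, 81.7 in shSOX2 and 388 in shCCAT1. In KYSE140 it was at 95.2 TPM in scramble, 95.7 in shTP63 and 28.1 in shSOX2. The log2 fold change upon SOX2 silencing was -2.63 (-2.68 to -2.59) in TE5 and -1.75 (-1.83 to -1.67) in KYSE140. Upon TP63 silencing it was -1.55 in TE5 but -0.04 (-0.09 to 0.01) in KYSE140. TYMS was hence at 16.1% and 29.8% of scramble in the shSOX2 libraries, and it was the only member past -1 upon SOX2 silencing in either line. The low level held for the most abundant transcript, TYMS-203, which was at 335 TPM in TE5 scramble, 122 in shTP63, 46.4 in shSOX2 and 253 in shCCAT1. In KYSE140 that transcript was at 54.7, 51.5 and 11.0 TPM in scramble, shTP63 and shSOX2. TYMS-205, for which the annotation defines no coding sequence, was at 119 and 26.8 TPM in scramble and shSOX2 of TE5, so both transcripts were lower.

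**Figure D3:**
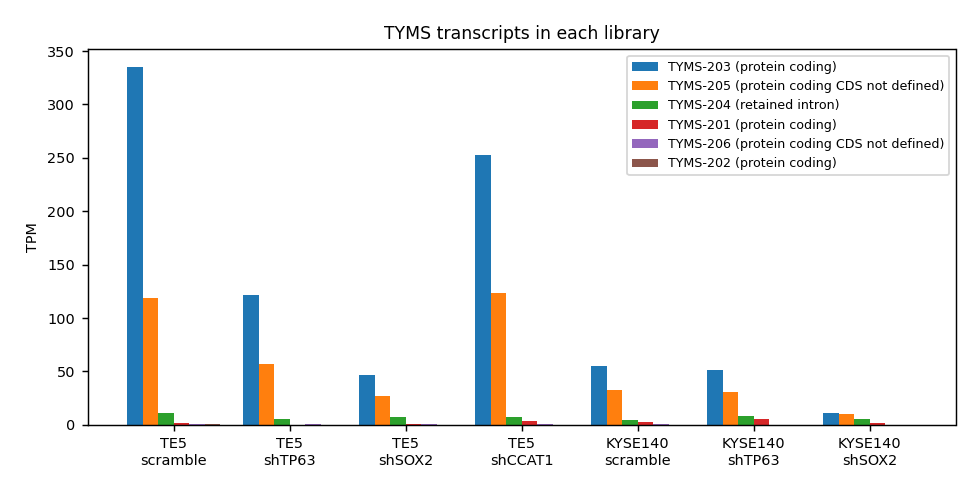
Level in TPM of the 6 annotated TYMS transcripts in each of the 7 libraries, 1 bar per transcript. TYMS-203 carries most of the level in TE5 scramble (335 TPM) and is at 46.4 TPM in TE5 shSOX2 and 11.0 TPM in KYSE140 shSOX2.

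TYMS overlaps the antisense genes ENOSF1 and TYMSOS, which cover 47.9% of its exonic bases, and 44.2% of its 31-base words occur in other genes. ENOSF1 had log2 fold changes of -0.17 in TE5 and -0.11 in KYSE140 upon SOX2 silencing, far smaller than those of TYMS. TYMSOS, the other antisense gene, was at -1.03 (-1.19 to -0.87) in TE5 and 0.17 (-0.09 to 0.43) in KYSE140. As it was not stated whether counting used strand, reads of these genes cannot be told apart with certainty. The 3′ untranslated region of TYMS holds the word GAAGGAT, which was looked for because earlier results of these libraries had pointed to it for SOX2 silencing. The site is shown because TYMS is the member with the lowest value there. It lies at chr18:673007-673033 of hg19 on the plus strand, in the 3′ untranslated region, and the capitals mark the word.

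TYMS 3′ UTR site: aaaggagctcGAAGGATattgtcagtc

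The word occurs in the 3′ untranslated region of 5 of 39 members (12.8%) and of 10.1% of 19448 genes. Upon SOX2 silencing the other 4 holders had, for TE5 and KYSE140, fold changes on the log2 scale of -0.59 and -0.43 for GINS2, -0.47 and -0.13 for GINS4, -0.44 and -0.08 for POLD3, and -0.23 and 0.24 for RPA2. None of these 4 came near TYMS, and the part of the word in the TYMS level was not tested. AGAACAC, another word from the earlier results, was searched as well. It occurs in 3 of 39 members (7.69%), TYMS not among them, and in 10.8% of genes.

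RRM1 and RRM2 are the subunits of ribonucleotide reductase, which makes deoxynucleotides, and they differed. RRM1 was at 102, 62.4, 68.0 and 86.7 TPM in TE5 scramble, shTP63, shSOX2 and shCCAT1 and at 96.2, 64.3 and 69.3 in KYSE140 scramble, shTP63 and shSOX2. RRM2 was at 146, 129, 115 and 172 TPM in TE5 and at 155, 174 and 168 in KYSE140. Upon TP63 silencing RRM1 was at a log2 fold change of -0.86 in TE5 and -0.62 in KYSE140, whereas RRM2 was at -0.11 and 0.38. TK1, which salvages thymidine, and DUT, which removes dUTP, were at -0.65 and -0.81 in TE5 and at -0.26 and -0.03 in KYSE140.

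E2F1, a transcription factor of S-phase genes, was at 30.6, 24.2, 18.8 and 36.4 TPM in TE5 scramble, shTP63, shSOX2 and shCCAT1 and at 25.4, 27.2 and 18.9 in KYSE140 scramble, shTP63 and shSOX2. DTL, which directs the destruction of CDT1, was at 59.2, 52.1, 47.5 and 57.5 TPM in TE5 and at 16.3, 15.6 and 13.5 in KYSE140. E2F1 was lowest in the shSOX2 library of each line, at -0.69 (log2) for TE5 and -0.26 for KYSE140, against -0.49 and 0.07 upon TP63 silencing. The regulators were thus nearer to scramble than most of the genes of the replication machinery upon TP63 silencing in TE5.

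The promoters share sequence that the choice of members did not use. RefSeq promoters, from 250 bases before to 50 bases after a start on GRCh38.p14, were found for 34 of 39 members. An E2F word (TTTCCCGC, TTTCGCGC, TTTGGCGC or TTTGCCGC, on either strand) was present in 21 of the 34 (61.8%) and in 5.4% of 15843 protein-coding genes. CCAAT was present in 61.8% of members and 42.1% of genes, and a CHR word (TTTGAA or TTCGAA) in 8.82% and 17.5%. The windows below, of 40 bases with the E2F word in capitals, are shown for the 6 members past -1 upon TP63 silencing in TE5 that hold one and for POLE, which was near scramble although its promoter holds the same word as GINS1 and POLA1. MCM3 and MCM7 hold 2 such words each, and the one nearer to the start is shown. They lie at chr20:25407662-25407701 on the plus strand (GINS1), chrX:24693765-24693804 plus (POLA1), chr16:58392450-58392489 plus (GINS3), chr6:52284723-52284762 minus (MCM3), chr7:100101383-100101422 minus (MCM7), chr18:657598-657637 plus (TYMS) and chr12:132687337-132687376 minus (POLE).
GINS1: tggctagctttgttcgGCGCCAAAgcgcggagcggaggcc
POLA1: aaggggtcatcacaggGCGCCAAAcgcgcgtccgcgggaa
GINS3: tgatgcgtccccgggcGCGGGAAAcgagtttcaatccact
MCM3: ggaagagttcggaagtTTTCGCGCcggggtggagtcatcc
MCM7: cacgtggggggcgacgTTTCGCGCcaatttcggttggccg
TYMS: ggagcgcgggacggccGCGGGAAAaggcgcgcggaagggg
POLE: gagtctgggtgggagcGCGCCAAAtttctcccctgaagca

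Upon TP63 silencing in TE5 the 20 measured members with an E2F word had a median log2 fold change of -0.84 and ranged from -1.55 to -0.18, and the 13 without one had a median of -0.74 and ranged from -1.29 to -0.05. The ranges overlapped over most of their length. CDC45 and MCM10 lay past -1 with no such word in their window. Upon SOX2 silencing in TE5 the medians were -0.55 and -0.32.

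Between libraries of the same lane the members were lower upon TP63 silencing in TE5 as well. Against shCCAT1, shTP63 had all 38 members lower, with a median of -0.64 against 0.01 over all genes, and 8 lay past -1 where 9.58% of all genes lay. Of these 8, 5 act in helicase activation: GINS1 at -1.44, GINS3 at -1.43, MCM10 at -1.31, CDC45 at -1.18 and GINS2 at -1.05. RFC4 was at -1.20, POLE2 at -1.15 and TYMS at -1.12, while MCM3 and MCM7 were at -0.80 and -0.83. Against shCCAT1, shSOX2 had 37 of 38 members lower with a median of -0.39, TK1 being the exception at 0.09, and TYMS alone lay past -1, at -2.21, where 11.9% of all genes lay. The scramble and shCCAT1 comparisons share the shTP63 and shSOX2 libraries and are not independent.

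Directly between both silencings in TE5, shTP63 was the lower library for 31 of 38 members, with a median of -0.28 against 0.05. GINS1 lay past -1 at -1.34, where 5.98% of genes lay, and TYMS past 1 at 1.09, where 14.3% lay. In KYSE140 shTP63 was the lower library for 13 of 38 members, with a median of 0.12 against 0.01. There no member lay past -1, where 6.52% of genes lay, and TYMS alone lay past 1, at 1.71 (1.63 to 1.78), where 10.2% lay. TYMS was therefore lower upon SOX2 than upon TP63 silencing in both lines, while GINS1, GINS3 and POLA1 were lower upon TP63 silencing in both, at -1.34, -0.82 and -0.79 in TE5 and -0.30, -0.50 and -0.34 in KYSE140.

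**Figure D4:**
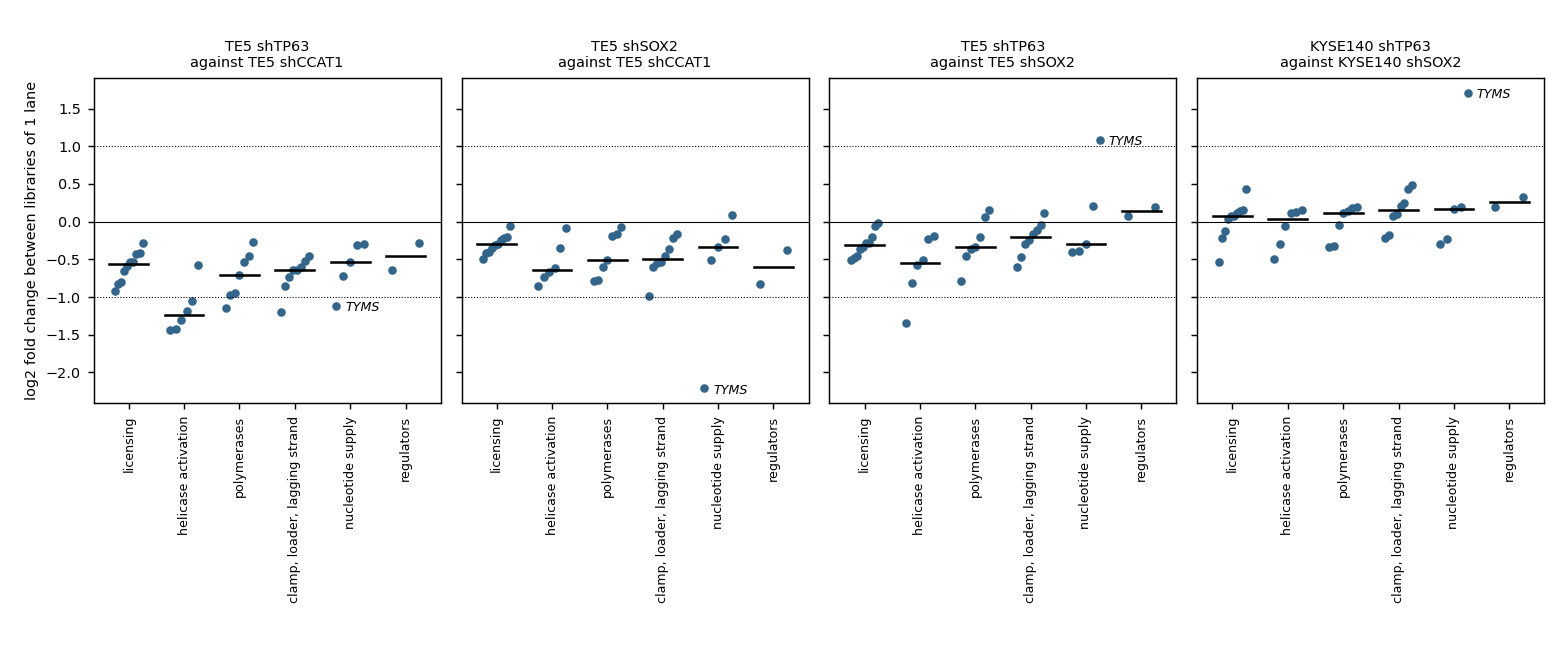
Log2 fold changes between knockdown libraries sequenced in the same lane, 1 point per member by role, with a line at the median of each role and dotted lines at -1 and 1. Helicase activation has the lowest median of shTP63 against shCCAT1 in TE5, and TYMS is the point at 1.09 and 1.71 in the panels of shTP63 against shSOX2.

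The lines differed in the size of the difference upon TP63 silencing. All 38 members had a lower log2 fold change in TE5 than in KYSE140, and for 37 the counting intervals were apart. Over the 20212 genes compared in both lines, 56.8% were lower in TE5, and 30.1% were lower with intervals apart. Upon SOX2 silencing 34 of 38 members were lower in TE5, against 56.9% of genes. Members below scramble in both lines numbered 27 upon TP63 silencing and 29 upon SOX2 silencing. With 1 library per group the difference between the lines could not be tested, and the lines also differ in lane and in the remaining SOX2. The scramble libraries themselves differed, with 28 members higher in TE5 and 10 in KYSE140, and TYMS was furthest apart at 467 against 95.2 TPM.

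**Figure D5:**
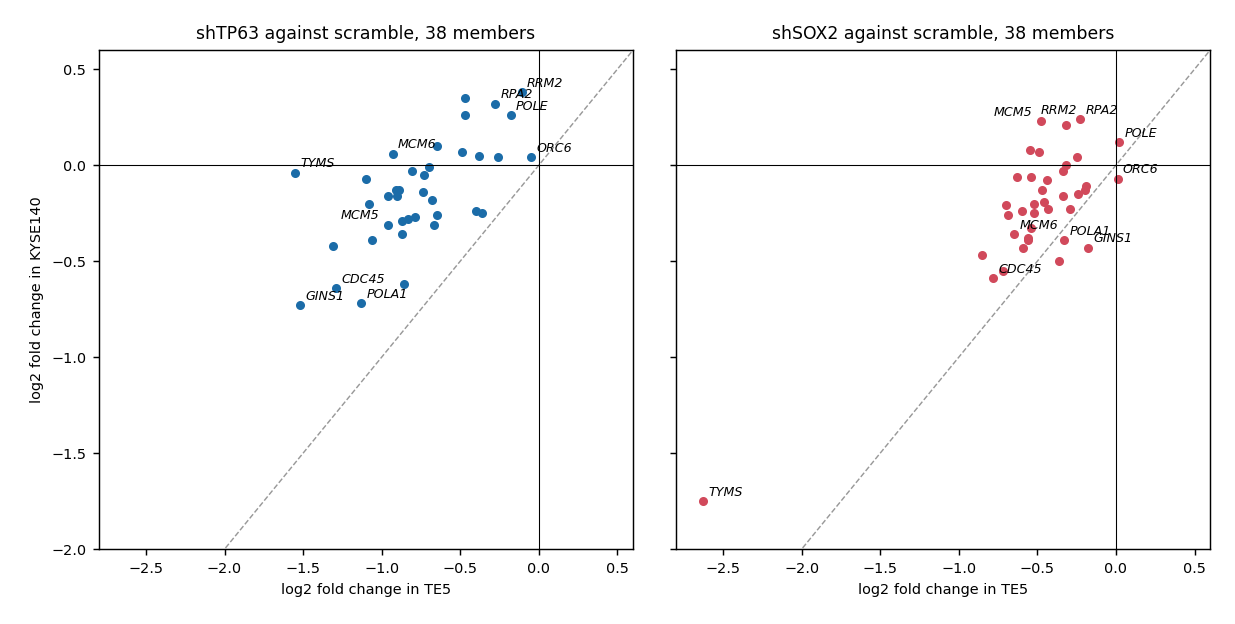
Log2 fold change against scramble in TE5 (horizontal axis) and KYSE140 (vertical axis) for 38 members upon TP63 (left) and SOX2 (right) silencing; the dashed line marks equal values. All points of the left panel lie above the dashed line, and TYMS lies at -2.63 and -1.75 in the right panel.

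A fit over both lines took the lines in place of replicates, with a term for the line and 2 residual degrees of freedom. With edgeR's quasi-likelihood test no member passed a Benjamini-Hochberg adjusted p of 0.1 upon TP63 silencing, where 0% of 26260 features passed, upon SOX2 silencing, where 0.0533% passed, or between both silencings, where 2.21% passed. The lowest adjusted p of a member in these edgeR tests was 0.159, 0.216 and 0.122. At an unadjusted p under 0.05, edgeR had 20 members lower and 0 higher upon TP63 silencing, against 7.76% of all features lower, and 11 lower and 0 higher upon SOX2 silencing, against 4.91%. With no term for the line, 1 member was lower at that unadjusted p upon each silencing, against 0.594% and 0.358% of features. Each condition has 1 library per line, so a fit that leaves out a library has 1 left for that condition. Here such fits are given by the members' median log2 fold change alone, which depended on the library left out. Upon TP63 silencing the median was -0.47 with all 6 libraries. It was -0.26 without TE5 scramble, -0.26 without TE5 shTP63, -0.67 without KYSE140 scramble and -0.74 without KYSE140 shTP63. Without the shSOX2 library of either line it was -0.48. Upon SOX2 silencing the median was -0.34 with all 6 libraries, -0.12 without TE5 scramble and -0.41 without TE5 shSOX2. It was -0.56 without KYSE140 scramble, -0.31 without KYSE140 shSOX2, -0.34 without TE5 shTP63 and -0.32 without KYSE140 shTP63. DESeq2 called 16 members lower and 0 higher upon TP63 silencing, where 10.2% of features were called lower and 3.58% higher. Upon SOX2 silencing it called 5 lower and 0 higher, where 2.94% were called lower and 1.44% higher. Between both silencings DESeq2 called GINS1, GINS3 and POLA1 lower and TYMS higher in shTP63, where 10.2% of features were called lower and 5.9% higher. In each direction a smaller share of members than of features was called. In edgeR TYMS had a log2 fold change of -2.26 ± 0.33 (SE) upon SOX2 silencing, with an adjusted p of 0.216. The edgeR SE was derived from the F statistic of the test. DESeq2 gave -2.27 ± 0.34 (SE) and an adjusted p of 1.64e-08. Upon TP63 silencing RRM1 had -0.74 ± 0.13 (adjusted p 0.159) by edgeR and -0.78 ± 0.15 (adjusted p 5.06e-05) by DESeq2. CDC45 had -0.96 ± 0.18 (adjusted p 0.167) there by edgeR and -1.0 ± 0.23 (adjusted p 0.00051) by DESeq2. Calls of the fits that leave out a library are not read as results, as 1 library then stands for a condition. Without KYSE140 shTP63, for instance, TE5 shTP63 alone stands for TP63 silencing. The range of those calls is listed only with the other processing choices.

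Some members had a large share of their TPM in transcripts that do not encode the protein. Transcripts with a retained intron made up 50.2% to 64.5% of the TPM of MCM7, 43.7% to 67.5% of ORC6 and 40.3% to 68.7% of RRM2 over the libraries. By counts, which the fold changes use, protein-coding transcripts held 41.4% to 55.0% of those assigned by identifier for MCM7, 22.0% to 46.0% for ORC6 and 68.1% to 90.0% for RRM2. For LIG1, the ligase that seals the lagging strand, the retained-intron share of TPM was 8.3%, 26.4%, 18.1% and 13.9% in TE5 scramble, shTP63, shSOX2 and shCCAT1, and 11.5%, 26.5% and 22.6% in KYSE140 scramble, shTP63 and shSOX2. The share was thus higher than in scramble in every knockdown library, a difference that cannot be told apart from the lane, and it was highest in the shTP63 library of each line. MCM4 took 83.5% to 88.2% of its counts from transcripts placed by their neighbours in the table instead of by identifier. That share was 28.4% to 48.4% for POLA2, 27.4% to 38.8% for RFC5 and 10.9% or less for every other member. A count without the identified noncoding transcripts kept those placed by neighbours, whatever their type. It put MCM7 at -1.16 and POLA2 at -0.53 upon TP63 silencing in TE5, and POLA2 at -0.52 in KYSE140. The furthest move of any member in the 5 pairs was 0.33, for ORC6. For MCM4, POLA2 and RFC5 it cannot show the change of coding transcripts alone.

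A further 58 genes of the same pathways were counted. Their median upon TP63 silencing in TE5 was -0.48, against 0.07 over all genes, with 51 below scramble and 8 past -1, where 5.39% of all genes lay. Of those 8, 4 make nucleotides: PAICS, a purine synthesis enzyme, at -2.23, IMPDH1 at -1.64 and IMPDH2 at -1.07, which commit purines to guanine, and CTPS1 at -1.31, which makes CTP. PAICS was at 189 TPM in TE5 scramble, 42.1 in shTP63, 74.1 in shSOX2 and 170 in shCCAT1, and at 313, 158 and 99.3 in KYSE140 scramble, shTP63 and shSOX2. It was past -1 upon SOX2 silencing in both lines, as TYMS was. The median of the 58 was -0.21 upon SOX2 and -0.01 upon CCAT1 silencing in TE5, and 0.01 and -0.12 upon TP63 and SOX2 silencing in KYSE140. Of the 58, edgeR called 0 upon TP63 and 0 upon SOX2 silencing, with 10 and 12 lower at an unadjusted p under 0.05, against 7.76% and 4.91% of all features. Between both silencings edgeR called 2 of the 58, ASF1B and IMPDH1, 1 in each direction, where 2.21% of features were called. DESeq2 called 7 lower and 1 higher upon TP63 silencing, where 13.8% of features were called, 5 lower upon SOX2 silencing, where 4.38% were, and 4 lower and 4 higher between them, where 16.1% were.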

How the data were processed

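RNA-Seq libraries of TE5 (4) and KYSE140 (3) were compared. The authors pseudoaligned 100-base paired reads with Kallisto to the Ensembl release 82 transcriptome, described as hg19; versions are not given in the sources used here. The deposited files hold estimated counts, which the authors did not scale between libraries, and deposited TPM values, scaled per effective length. Here 182863 of 196354 transcripts were assigned to genes by identifier (GENCODE 44, hg19; 93.58% of counts) and 7011 whose nearest assigned neighbours in the table were of 1 gene (true of 99.7% of 96494 assigned transcripts so placed); 6480, with 2.7% of counts, kept no gene. Libraries were scaled by TMM. Counting intervals were exact (Clopper-Pearson, 95%) and cover counting error only. Rounded counts were tested with edgeR 4.0.16 and DESeq2 1.42.0 in R 4.3.3. With the term for the line, p-values weigh a change against how far changes disagreed between the lines. They do not measure a spread of replicates, and lane is mixed in. Members, lists and words were chosen with earlier results of these data known. Values per library are given for members past a log2 fold change of 1 or -1 against scramble and for the lowest and highest of each role upon TP63 silencing in TE5, with RRM1 and PCNA added after their values were seen. Alternatives were other scalings, pseudocounts, filters, transcript sets, tests and leaving out each library.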

Additional observations from a re-analysis of the deposited data

Results flagged for a closer look

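Some members had log2 fold changes of opposite sign in the lines, with counting intervals that leave out 0 in each. With 1 library per group the difference was not tested. The signs are those of TMM-normalized counts, and the intervals do not cover the choice of scaling. Upon TP63 silencing in TE5, RRM2 was above scramble with total counts, and POLE was above it by TPM. Upon TP63 silencing the KYSE140 value exceeded the TE5 value by 0.99 for MCM6, 0.74 for PRIM1, 0.44 for POLE, 0.82 for RFC3, 0.73 for FEN1, 0.60 for RPA2, 0.49 for RRM2 and 0.56 for E2F1. Upon SOX2 silencing the excess was 0.71 for MCM5, 0.47 for RPA2 and 0.53 for RRM2. RPA2 and RRM2 stand in both lists, below scramble in TE5 and above it in KYSE140 upon each silencing.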

How the results depend on the processing

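No value past a limit changed its sign, and 268 of 312 alternative values of medians and counts stayed near the main ones, counts within 1.5 times and medians within the typical half-width of a member's counting interval. Of 320 alternative log2 fold changes of the 8 members past a limit, 254 moved by less than that gene's half-width and 66 by more. With total counts only, the members' median was -0.66 upon TP63 and 0.16 upon CCAT1 silencing in TE5, -0.09 upon TP63 and -0.28 upon SOX2 silencing in KYSE140, -0.16 for shTP63 against shSOX2 in TE5, -0.55 for shSOX2 against shCCAT1 and 0.27 for shTP63 against shSOX2 in KYSE140; 4 members lay past -1 upon TP63 silencing in TE5 (4.16% of genes) and 3 in shSOX2 against shCCAT1 (14.6%). With TPM the medians were -0.55, -0.43 and 0.12 upon TP63, SOX2 and CCAT1 silencing in TE5, -0.08 and -0.35 upon TP63 and SOX2 silencing in KYSE140, -0.11 for shTP63 against shSOX2, -0.59 and -0.57 for shTP63 and shSOX2 against shCCAT1, and 0.29 for shTP63 against shSOX2 in KYSE140; 3 members lay past -1 upon TP63 silencing in TE5 (3.3% of genes) and 2 in shSOX2 against shCCAT1 (12%). A limit of 0.58 was passed downward by 27 and 10 members upon TP63 and SOX2 silencing in TE5, 4 and 2 in KYSE140, 5 in shTP63 against shSOX2, and 24 and 11 in shTP63 and shSOX2 against shCCAT1, where 14%, 11.8%, 9.81%, 12.8%, 14.4%, 18.9% and 21.3% of all genes passed it in the same order. In the fits over both lines, DESeq2 called 16 and 5 members lower upon TP63 and SOX2 silencing and 3 lower and 1 higher between them; no filter gave 5 and 1 lower and 1 higher (1.07%, 0.298% and 1.37% of features), and leaving out unassigned transcripts gave 3 and 1 lower and 1 higher (0.974%, 0.136% and 2.14%), with fewer or other features tested. Leaving out each library in turn gave 0 to 18 members lower upon TP63 silencing, 0 to 4 upon SOX2 silencing, and 0 to 3 lower and 0 to 1 higher between them, the highest counts standing beside 3.61%, 1.15%, 4.1% and 1.36% of features called in the same direction; a lone library is then assumed to vary like the others. The causes were not tested. The calls of fits that leave out a library are listed only to show how they depend on that library, and they are not read as results. The fits over both lines pair the libraries by cell line, and without that term 0 members were called by edgeR in the 3 contrasts, as with it, with 1, 1 and 0 at an unadjusted p under 0.05; the labels give no replicate numbers for another pairing. Members had at least 973 normalized counts in each library, so that the number of libraries limits precision more than depth.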
